A study of Mus musculus with 11 samples.

Results

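WDR5 binding in wild-type (WT) embryoid bodies was compared with the signal of the same antibody in a Wdr5 and p53 double knockout (DKO). The members were 438 regions of chromosomes 1 to 19, X and Y that were called in both WT WDR5 peak lists, out of 19707 peaks in the 11 lists of the series. A region was taken as shared where it overlapped a peak of either DKO WDR5 list by at least 1 base, and as absent from DKO otherwise. This split left 312 absent regions and 126 shared ones, so 71.2% of the regions were absent (Wilson 95% interval 66.8% to 75.3%). The WT lists were longer than the DKO lists. With all 4 cut to the 166 peaks of highest fold enrichment, 80 of 144 WT regions (55.6%, 47.4% to 63.4%) overlapped no DKO peak and 69 of 133 DKO regions (51.9%, 43.5% to 60.2%) no WT peak, and these intervals overlap. In such shortened lists a region can lie on a lower peak that was left out.

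The profiles came from CUT&RUN, in which an antibody on chromatin directs a nuclease that cuts out the DNA around the bound protein. The cells were embryoid bodies at day 2, grown by the SFEBq method in GMEM with 5% KSR from mouse embryonic stem cells with a GFP reporter knocked in at Rx. Doxycycline was withdrawn at day 0 and 2% matrigel was added at day 1 in every group. Each profile used 2 µg of antibody against WDR5, P53 or H3K4me3 for 2 M (mega) cells. The genotypes were WT, a Wdr5 knockout (KO, with an H3K4me3 list used here) and the Wdr5 p53 DKO. The sources used here do not give how the alleles were made, what the doxycycline controlled or how many clones or cultures were used. DKO differs from WT by both genes, and their parts cannot be told apart.

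WDR5 is a WD40 scaffold protein of the MLL and SET1 complexes, which methylate lysine 4 of histone H3 at the starts of active genes. In many cell types a small set of promoters, with those of ribosomal protein genes prominent among them, carries the strongest WDR5 signal. In cells that lack the protein, the antibody's remaining signal serves as a background for the WT signal. The peak lists do not show whether WDR5 protein was gone from the DKO cells at day 2.

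The 2 lists of a group did not behave as separate libraries. In WT, 348 of the 450 summits of list 2 (77.3%) coincided to the base with one of list 1, and in DKO 125 of 166 (75.3%) did, against at most 2.41% between a WT and a DKO list. At those shared bases the pileup of list 2 was not higher than that of list 1 for 346 of 348 summits in WT and 124 of 125 in DKO. Each genotype was therefore counted as 1 library (n = 1). No test across genotypes was possible, and intervals cover counting error only. Fold enrichment (FE) is the authors' value for each peak, its pileup over the local background of the same library, and is not scaled between lists. The libraries held 26.6 M and 24.1 M fragments for the WT lists and 36.4 M and 33.7 M for the DKO lists, so the genotype with fewer peaks was the deeper one.

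Stretches upstream of the start of genes at the regions are shown first, since most regions at gene ends lay at starts. They are RefSeq sequences of GRCm38.p6, the assembly of mm10, written 5′ to 3′ along the gene. Capitals mark the motifs searched, on either strand. Of the ribosomal protein genes at an absent region, Rps18, Rpl27 and Rpl37 held the ETS core CCGGAA (in Rps18 on both strands of 1 palindrome, in Rpl27 as a tandem pair), and Rps19 ended in a match to the CGCG palindrome that runs on past the start.
Rps18, chr17:33955666-33955765, minus strand: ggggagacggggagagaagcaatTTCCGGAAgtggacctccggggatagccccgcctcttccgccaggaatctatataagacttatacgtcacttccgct
Rpl27, chr11:101442145-101442244, plus strand: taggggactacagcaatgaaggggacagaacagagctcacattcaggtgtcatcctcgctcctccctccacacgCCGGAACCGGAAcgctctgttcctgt
Rpl37, chr15:5116563-5116612, plus strand: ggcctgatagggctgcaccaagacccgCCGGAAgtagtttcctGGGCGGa
Rps19, chr7:24884482-24884591, plus strand: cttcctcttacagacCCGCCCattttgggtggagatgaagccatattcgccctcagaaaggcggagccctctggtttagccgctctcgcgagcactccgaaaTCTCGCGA

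Among promoter windows of ribosomal protein genes, the ETS core was in 28 of 57 (49.1%) on no absent region. It was in 5 of 11 (45.5%) on an absent region, which is about as frequent. Windows were sorted by overlap, so the 57 include genes whose absent region lies just past the window, such as Rps3.

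Other genes at an absent region are shown for the other motifs found there. E2f3, which encodes an activator of genes for DNA replication, held several CCAAT boxes and a pair of octamers (ATGCAAAT). Uvrag, an autophagy and membrane traffic protein, held a pair of CCAAT boxes. The stretches of Nop16, a nucleolar protein of ribosome assembly, and Zfp607b, a zinc finger gene, held the core of the site bound by ZNF143 and THAP11, seen in its capitals from GGAG to AGT.
E2f3, chr13:29986065-29986263, minus strand: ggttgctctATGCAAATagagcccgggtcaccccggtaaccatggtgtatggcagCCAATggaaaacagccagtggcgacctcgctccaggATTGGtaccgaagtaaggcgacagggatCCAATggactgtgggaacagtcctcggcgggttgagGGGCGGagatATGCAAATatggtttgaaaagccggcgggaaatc
Uvrag, chr7:99141168-99141354, minus strand: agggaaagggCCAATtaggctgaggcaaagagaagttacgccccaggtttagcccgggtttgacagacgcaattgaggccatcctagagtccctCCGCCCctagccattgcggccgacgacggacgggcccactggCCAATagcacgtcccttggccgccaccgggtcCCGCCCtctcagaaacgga
Nop16, chr13:54590098-54590224, minus strand: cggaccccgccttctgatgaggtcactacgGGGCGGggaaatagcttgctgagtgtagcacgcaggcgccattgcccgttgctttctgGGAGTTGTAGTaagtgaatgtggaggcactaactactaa
Zfp607b, chr7:27674631-27674660, plus strand: cgcgatgccgcctgGGAGTTGTAGTcccaa

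Of the genes at a shared region, Cic, a transcriptional repressor of growth factor signalling, and Zranb3, a DNA translocase of stalled replication forks, each held 3 CCAAT boxes. Cic also held the E-box CACGTG.
Cic, chr7:25267449-25267657, plus strand: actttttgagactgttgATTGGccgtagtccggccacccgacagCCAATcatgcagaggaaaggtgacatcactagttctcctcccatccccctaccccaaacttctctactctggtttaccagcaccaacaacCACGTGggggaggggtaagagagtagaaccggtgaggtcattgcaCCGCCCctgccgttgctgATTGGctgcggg
Zranb3, chr1:128103054-128103247, minus strand: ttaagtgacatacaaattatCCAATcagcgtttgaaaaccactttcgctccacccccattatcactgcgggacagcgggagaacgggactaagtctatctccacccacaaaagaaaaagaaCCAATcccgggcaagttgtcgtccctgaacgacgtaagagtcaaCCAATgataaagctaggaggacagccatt

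The regions differed in height and in what became of them. In the absent regions the FE of WT list 1 had a median of 5.25 and ran from 1.95 to 14.3, and that of list 2 had a median of 5.04 and ran from 1.93 to 13.4. The median pileup was 21 fragments in list 1 and 18 in list 2, so most of these peaks rested on few fragments. When the 438 regions were split into sixths by the lower FE of the 2 WT lists, the share absent from DKO was 71.6% (Wilson interval 60.5% to 80.6%) in the lowest sixth and between 72.6% and 87.5% in the next 4. It was 32.9% (23.2% to 44.3%) in the highest sixth, which ran from 6.61 to 38.2. The highest WT signal was thus found in DKO more often than the rest.

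**Figure D1:**
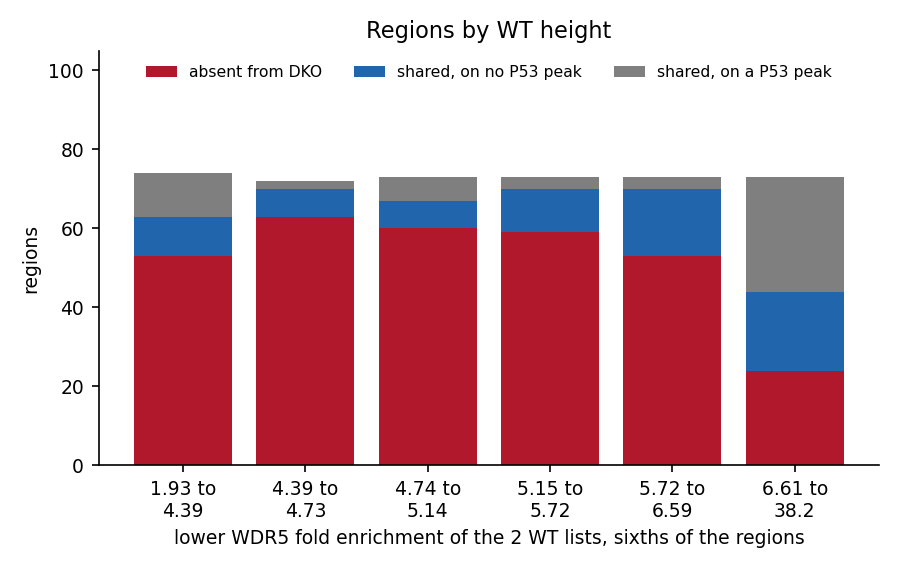
Number of WT WDR5 regions (vertical axis) in each sixth of the lower fold enrichment of the 2 WT lists (horizontal axis), coloured by class. In the highest sixth 24 regions were absent, 20 were shared and on no P53 peak, and 29 were shared and on a P53 peak.

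The shared regions were of 2 kinds, a split chosen after their values were seen. Of the 126, 54 also overlapped a peak of a P53 list and 72 did not. Of the 54, 53 were on a peak of a DKO P53 list, although that genotype lacks p53. The 72 are called regions in WDR5 lists only, which refers to P53 lists alone. Of these, 49 lay on a WT H3K4me3 peak. The 54 lay away from gene ends: 31 (57.4%) were outside protein-coding genes, 20 (37.0%) were inside a gene away from its ends, 3 (5.56%) were near a gene end (within 1 kb), and 0 of 54 were at a listed start. They also carried peaks of the H3K4me3 antibody in all genotypes, with 49 (90.7%) on a WT peak, 40 (74.1%) on a KO peak and 50 (92.6%) on a DKO peak. All 4 regions on chromosome Y were among them.

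The 2 highest of these regions gave nearly the same WDR5 FE in WT and DKO, and the other antibodies gave a lower FE than WT WDR5 list 1 at both. The region nearest Chl1 (chr6:103648781-103649292) had a WDR5 FE of 42.5 and 38.2 in the WT lists and of 43.7 and 39.1 in the DKO lists. Its P53 FE in WT was 38.5 and 34.5, and its H3K4me3 FE was 33.6 in WT and 34.4 in DKO. Unlike the other regions of this kind, it was on no peak of a DKO P53 list, and KO H3K4me3 had no peak there. The region at Lars2, which encodes the mitochondrial leucyl-tRNA synthetase, had 34.5 and 32.9 in the WT WDR5 lists and 32.7 and 30.8 in the DKO WDR5 lists. Its P53 FE was 12.4 and 12.1 in WT and 15.8 and 16.2 in DKO, and its H3K4me3 FE was 18.1 in WT, 14.2 in KO and 15.8 in DKO. Over the 53 regions of this kind that DKO list 1 called, the ratio of its FE to that of WT list 1 had a median of 0.9496 and ran from 0.641 to 1.41, and 35 were lower in DKO.

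The 72 shared regions in WDR5 lists only lay at genes. Of these, 58 (80.6%, 70.0% to 88.0%) were within 1 kb of a gene end and 53 of the 69 with a start table (76.8%) at a listed start. Their FE had a median of 6.18 in WT list 1 and of 4.90 in DKO list 1, with medians of 24 fragments of pileup in both. The ratio of DKO to WT had a median of 0.843, ran from 0.502 to 1.49 and was below 1 in 53 of 72 regions. In list 2, which shares reads with list 1, 56 were called, the median ratio was 0.875 and 39 were lower. A region had to be called in both genotypes to enter these ratios, so they describe the regions that stayed above the calling threshold.

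**Figure D2:**
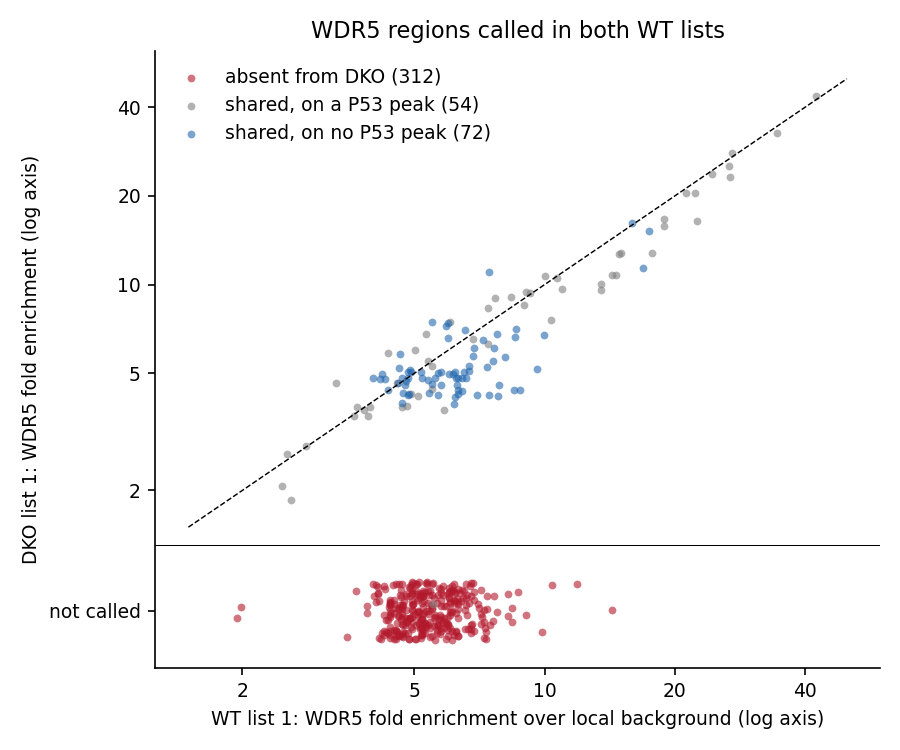
WDR5 fold enrichment of each region in WT list 1 (horizontal, log axis) and DKO list 1 (vertical, log axis), with regions not called in DKO list 1 in the strip below the line, spread at random within it. The regions on a P53 peak run along the dashed line of equal values up to 42.5 and 43.7, and the regions absent from DKO lie at WT values of 1.95 to 14.3.

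Among genes with a shared region in WDR5 lists only, Cic stood high in all 4 lists, with a WT FE of 9.95 and 9.38 and a DKO FE of 6.75 and 6.68. Cdk19, a kinase of the Mediator complex, had 8.75 and 8.69 in WT and 4.39 in DKO list 1, with no peak in DKO list 2. The divergent pair Arv1 and Ttc13 had a WT FE of 9.61 and 8.03 and a DKO FE of 5.18 and 4.91. Ell, an elongation factor of RNA polymerase II, had 7.80 and 6.98 in the WT lists, then 4.18 and 4.14 in those of DKO. At these 4 loci every DKO value lay below both WT values. Lsm4, a core protein of spliceosomal and decay complexes, had a WT FE of 7.83 and 7.01, with 4.54 and 4.11 in the DKO lists. The mitochondrial import gene Timm21 had 8.49 and 7.94 in WT and 4.39 in DKO list 1 alone. Timm13, a chaperone of the same import path, went the other way, with 4.60 and 4.24 in the WT lists against 5.20 and 4.95 in those of DKO. The splicing factor gene Hnrnpa1 had 6.15 and 5.90 in the WT lists and 4.98 with 5.16 in the DKO lists.

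The highest regions in WDR5 lists only were not at promoters. The region nearest Jarid2 had a WT FE of 17.4 and 15.6 and a DKO FE of 15.1 and 12.6, and those nearest Samd9l and Col19a1 had 15.9 and 14.9, and 16.9 and 15.4, in WT. The DKO lists gave 16.2 and 14.8 near Samd9l and 11.4 and 11.5 near Col19a1. These regions were also on H3K4me3 peaks. Near Col19a1 the H3K4me3 FE was 22.9 in WT, 15.5 in KO and 28.3 in DKO. Near Samd9l it was 7.54 in WT and 7.73 in KO with no peak in DKO, and near Jarid2 5.42 in WT alone. Near Camta1, the FE was higher in DKO, at 11.1 and 9.96 against 7.43 and 7.33 in WT.

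Absent regions lay mostly at the starts of genes. Of the 312, 192 (61.5%, 56.0% to 66.8%) were within 1 kb of the end of a protein-coding gene, 52 (16.7%) inside a gene away from its ends and 68 (21.8%) outside genes. At the 192, the nearest end was the start for 157 and the 3′ end for 1, with no strand in the tables used for 34. The share at gene ends was above that of all shared regions (61 of 126, 48.4%, 39.9% to 57.1%) and below that of the shared regions in WDR5 lists only (80.6%), so the order of the classes turned on whether regions called with P53 were counted. Without WDR5 peaks that lie on a P53 peak, 299 of 371 regions (80.6%) were absent, and 63.5% of the absent and 80.6% of the shared ones lay at a gene end.

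The absent regions overlapped H3K4me3 peaks at a lower share than the shared ones. Of the 312, 124 (39.7%, 34.5% to 45.3%) overlapped a WT H3K4me3 peak, 75 (24.0%) a DKO peak and 19 (6.09%) a KO peak. For the 72 shared regions in WDR5 lists only these shares were 68.1% (56.6% to 77.7%), 37.5% and 6.94%. Of the 188 absent regions on no WT H3K4me3 peak, 86 (45.7%) had one within 1 kb. Of the 124 on a WT H3K4me3 peak, 61 (49.2%) were also on a DKO peak and 17 (13.7%, 8.74% to 20.9%) on a KO peak, against 49.2% and 8.08% of all 9836 WT H3K4me3 peaks. At absent regions the share found in DKO thus equalled that of all WT peaks. A further 14 absent regions lay on a DKO but no WT H3K4me3 peak. P53 lists touched 13 absent regions (4.17%).

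**Figure D3:**
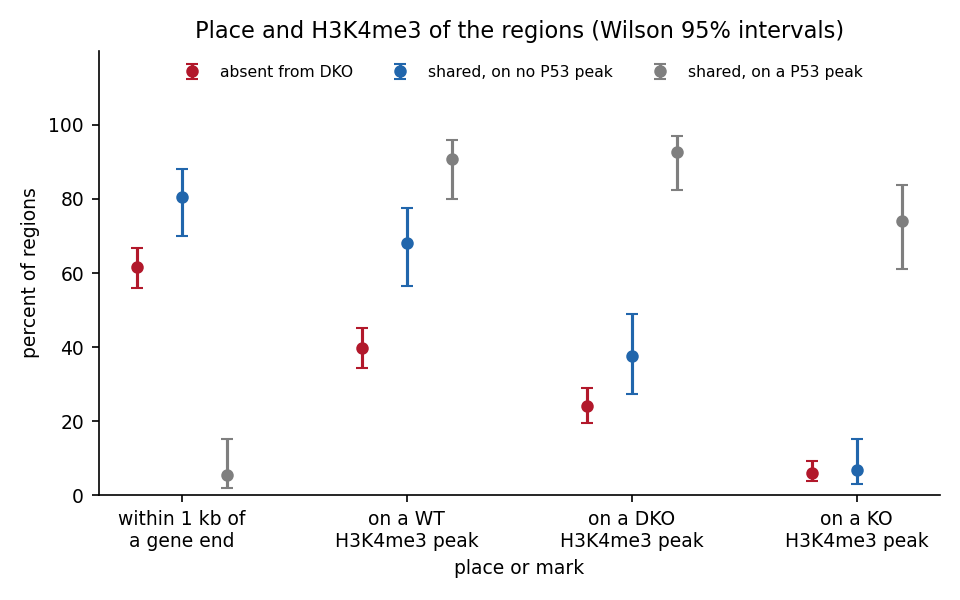
Percent of regions (vertical axis, points with Wilson 95% intervals) at a gene end or on an H3K4me3 peak of each genotype (horizontal axis), for absent regions and both kinds of shared regions. The shared regions on a P53 peak stand apart, with 5.56% at a gene end and 74.1% on a KO H3K4me3 peak.

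At absent regions the WDR5 summit lay more often upstream of the nearest start than downstream, with the ribosomal protein genes described later as an exception. At the 184 absent regions within 1 kb of a listed start, its median position was −149.5 bases from the nearest start, where a minus sign means upstream (quartiles −299.75 and 112.25), and 113 (61.4%, 54.2% to 68.1%) were upstream. At the 53 shared regions at a start the median was 24 bases downstream, with 25 (47.2%, 34.4% to 60.3%) upstream. For comparison, the summits of 7214 WT H3K4me3 peaks at starts had a median of 287 bases downstream.

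Protein-coding genes with an end within 1 kb of an absent region numbered 245 of 21887, or 1.12%, and 81 (0.37%) lay at a shared region. Among the 7762 genes marked by H3K4me3 at an end in WT, 2.69% lay at an absent region. Gene lists were read against the 1.12%, and their members marked in WT against the 2.69%. In the ribosomal protein lists, 13 of 47 genes of the large subunit (27.7%) and 6 of 32 of the small subunit (18.8%) lay at an absent region, and 0 of 79 at a shared region or at a region called in both DKO lists, where 0.416% of all genes lay. With WT list 1 alone, 24 of the 79 (30.4%) lay at a peak absent from DKO, against 2.01% of all genes, which added Rpl5, Rpl8, Rpl9, Rpl37a and Rps6. Shorter lists gave fewer: 12 (15.2%, against 0.603% of all genes) with the top 50% of each list and 8 (10.1%, against 0.329%) with lists of equal length.

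The large subunit genes were Rpl7, Rpl7a, Rpl10, Rpl11, Rpl13, Rpl23, Rpl24, Rpl27, Rpl29, Rpl32, Rpl35a, Rpl37 and Rpl41, and the small subunit genes included Rps3, Rps14, Rps18, Rps19 and Rps29. Their FE had a median of 5.97 in WT list 1 and 5.57 in list 2, against 5.25 and 5.04 over all absent regions, and the upper quartiles of all absent regions were 6.06 and 5.78. Rpl7, with an FE of 8.39 and 8.27, had the highest absent region at any gene end by the lower of its values. Rps18, whose ETS palindrome is shown above, had a region at chr17:33955276-33955767 with an FE of 6.18 and 5.98. Rpl37 had 6.11 and 5.92, and Rps19, which is mutated in Diamond-Blackfan anaemia, 6.20 and 5.70. Rpl11, a protein that binds MDM2 when ribosome assembly fails, had 6.25 and 5.09. The lowest were Rpl10, with 4.39 and 4.16, and Rpl41, with 4.24 and 3.90.

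At ribosomal protein genes WDR5 lay mostly downstream of the start, and at the other genes mostly upstream. Measured from the gene's own start, 13 of the 19 genes had a start in the table, and at 10 of them (76.9%) the summit was downstream, with a median of 180 bases. Rps18 had it at 79 bases, Rpl11 at 127, Rps3 at 180, Rpl37 at 182, Rpl27 at 369, Rpl24 at 509 and Rpl41 at 1220. The 3 exceptions were Rpl35a (−189), Rps19 (−298) and Rpl10 (−313). At the 172 other genes with an absent region the median was −219 bases and 44 (25.6%) were downstream. At the 55 genes with a shared region the median was −179 and 22 were downstream. A region near the starts of divergent genes enters here once for each gene. Its summit can be upstream of 1 or both, or downstream of both, as at Pradc1 (255 bases) and Cct7 (210 bases). In Rpl27 and Rpl37 the region began 20 and 47 bases past the gene's start, so the upstream stretches printed above lie outside it, while that of Rps18 lies inside its region.

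**Figure D4:**
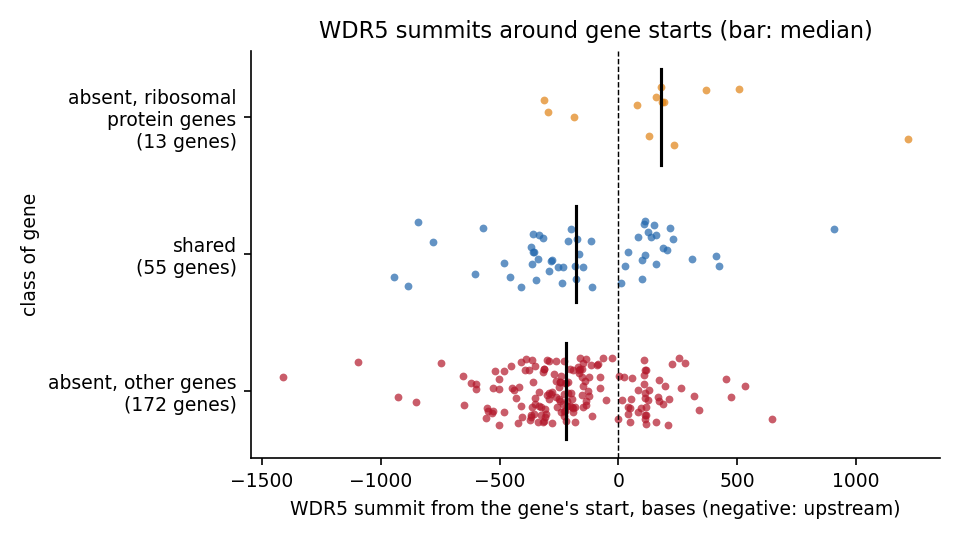
Position of the WDR5 summit from the gene's own start in bases (horizontal axis, negative upstream), 1 point per gene, with a bar at the median, for the classes of gene on the vertical axis. The bar of the ribosomal protein genes stands at 180 and that of the other genes at an absent region at −219.

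Several ribosomal protein genes with a region also host small RNA genes. Of the absent regions, 7 lay within 1 kb of a small nucleolar RNA gene (0.522% of 1340 such genes, below the 1.12% of protein-coding genes at an absent region), among them those of Rps3 (Snord15a), Rpl23 (Snora21), Rpl32 (Snora7a), Rpl13 (Snord68) and Rpl7a. The others were at Rack1, a ribosome-bound scaffold whose introns host such RNAs, and at the RNA helicase gene Ddx39b. A further 3 lay at transfer RNA genes, with 6 of 408 such genes (1.47%) in reach, and 1 region, near Rps29, lay at Rn7s1, an RNA of the signal recognition particle and 1 of 3 (33.3%) genes of its annotated kind. Of 12727 long non-coding RNA genes, 40 (0.314%) had an end within 1 kb of an absent region. The absent regions had a median width of 289 bases.

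H3K4me3 peaks at the 19 ribosomal protein genes were found in the mutants at a larger share than at other genes, and at about the same share as at ribosomal protein genes without a WDR5 region. All 19 were marked in WT, 17 (89.5%) also in DKO and 7 (36.8%) in KO, against 59.8% and 8.98% of all marked genes. Of the 48 marked ribosomal protein genes at no WDR5 region, 43 (89.6%) were marked in DKO and 17 (35.4%) in KO. Rps3 had a WT H3K4me3 FE of 6.17, then 4.74 in KO and 6.59 in DKO, and Rpl11 had 5.79, 6.72 and 4.803. Rps18 had 3.91 in WT and 4.005 in DKO with no peak in KO, and Rps19 had 3.57 in WT with no peak in KO or DKO. Over the 17, the DKO to WT ratio of FE had a median of 1.03, with 8 lower in DKO.

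**Figure D5:**
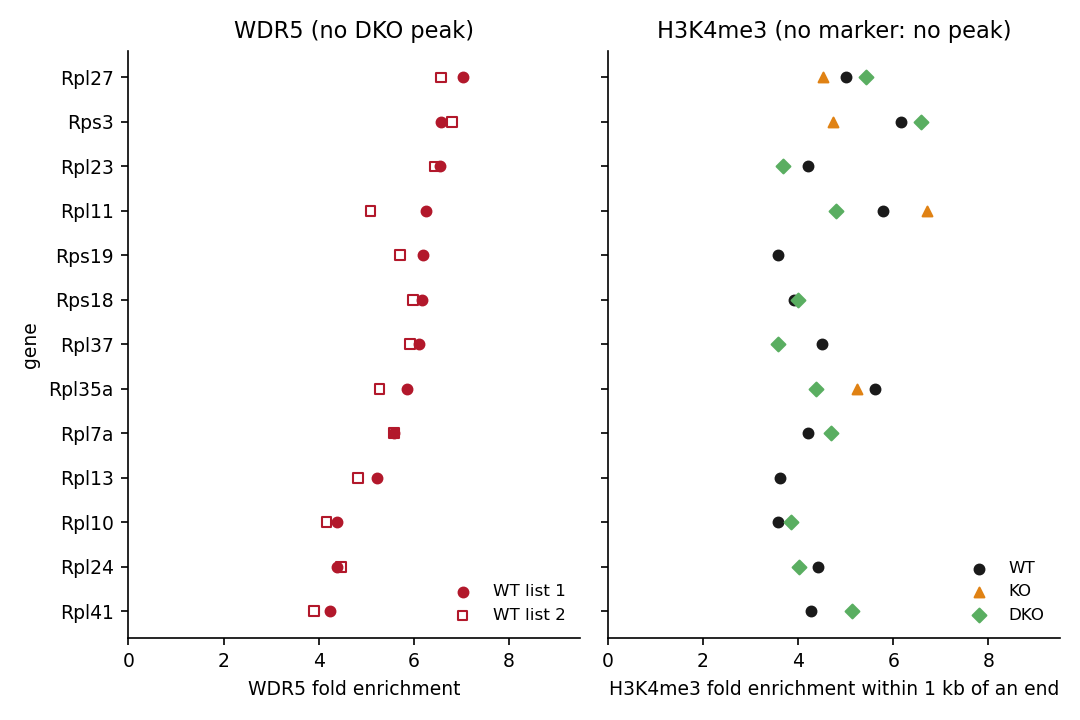
The 13 ribosomal protein genes at a region absent from DKO that have a start in the promoter table (vertical axis), with the WDR5 fold enrichment in both WT lists (left, horizontal axis) and the H3K4me3 fold enrichment within 1 kb of a gene end in WT, KO and DKO (right; no marker where no peak was called). WDR5 runs from 7.04 at Rpl27 to 4.24 at Rpl41 in list 1, and 4 of the 13 genes have a KO marker.

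Of all 209 genes at an absent region that were marked in WT, 151 (72.2%, 65.8% to 77.9%) were marked in DKO and 27 (12.9%, 9.03% to 18.1%) in KO. The 76 marked genes at a shared region in WDR5 lists only gave 76.3% and 11.8%. The 7474 at no WT WDR5 region gave 59.2% and 8.80%, both below the intervals of the genes at an absent region, though in KO by little. The 27 genes marked in KO include 7 of the 19 ribosomal protein genes (36.8%). That share was like the 35.4% of ribosomal protein genes at no WDR5 region. The KO share was not recomputed without them, so it is not shown to be a trait of absent regions. Where marked in both, the DKO to WT ratio of H3K4me3 FE had a median of 0.829 at genes with an absent region, 0.817 with a shared one and 0.814 with neither. The KO library held 22.3 M fragments and 918 peaks against 34.2 M and 9836 in WT, and its depth and its genotype cannot be told apart.

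Other lists had fewer members at absent regions. Of the chaperone genes, 4 of 29 (13.8%) had one: the chaperonin subunits Cct4 (6.74 and 6.42) and Cct7 (8.24 and 7.01), and the heat shock chaperones Hsph1 (7.23 and 6.30) and Hsp90b1 (5.09 and 4.72). The last is a chaperone of the endoplasmic reticulum. Splicing factor genes had 5 of 53 (9.43%), from Prpf3 at 6.68 and 6.17 and Sf3b3 at 5.12 and 5.26 to U2af2, Ddx39b and Snrpd2 between 4.93 and 4.39. Ribosome assembly genes had 3 of 54 (5.56%): Nop16 (5.32 and 5.00), the RNA polymerase I and III subunit gene Polr1d (4.71 and 4.51) and Mphosph10 (4.27 and 4.67). Translation factor genes had 2 of 42 (4.76%), Eef1g (6.84 and 6.63) and Eif3d (6.29 and 5.29), and mitochondrial import genes 1 of 28 (3.57%), Tomm40 (8.68 and 8.03), the channel of the outer membrane. Among members marked by H3K4me3 in WT, the shares were 14.3% of chaperone, 8.70% of splicing and 6.67% of ribosome assembly genes. They were 5.13% of translation factor and 3.70% of import genes, against 2.69% of all marked genes.

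Cell cycle and replication genes had 2 of 51 (3.92%) at an absent region, E2f3 (7.58 and 7.01) and Cdca2 (7.47 and 6.70), a chromosome-bound phosphatase subunit. Of the p53 target genes, 2 of 40 (5.00%) had one, the sestrin gene Sesn1 and the small GTPase gene Rap2b. The Sesn1 region (6.47 and 5.88) lay 616 bases from that gene and at the start of Cep57l1, and the Rap2b region (4.69 and 4.79) lay 787 bases from its gene. Among members marked by H3K4me3 in WT, the shares were 4.44% of cell cycle and 3.57% of p53 target genes. These rest on 1 or 2 genes and are near the 2.69% of all marked genes. The lists with 0 members at an absent region were mitochondrial ribosomal proteins (of 77), oxidative phosphorylation subunits (of 74), proteasome subunits (of 38), WDR5 complex partners (of 39), pluripotency genes (of 31), anterior neural and eye field genes (of 37), mesoderm and endoderm markers (of 24), extraembryonic markers (of 22) and fibroblast feeder markers (of 20). At the 1.12% of all genes a list of this size would hold less than 1 gene, so these counts of 0 are near that background. Against the 2.69% of all marked genes stood 0 of 68 marked mitochondrial ribosomal and 0 of 61 marked oxidative phosphorylation genes. Lists of this size are too small to tell a count of 0 from either share. WT list 1 alone, with 2.01% of all genes at a peak absent from DKO, added Sdha, Uqcrq and Cycs of the oxidative phosphorylation genes and Pagr1a of the WDR5 complex partners. In the other lists it added Eif5b, Heatr1, Hspa9, Tomm70a, Samm50, Sf1, Pcna and Cdt1. Of the markers of other cell types, H3K4me3 in WT lay at 1 of 24 mesoderm and endoderm genes, 6 of 22 extraembryonic genes and 2 of 20 feeder genes. Of the pluripotency genes it lay at 20 of 31, and of the anterior neural genes at 10 of 37. Of all 21887 protein-coding genes it lay at 7762. Among these lists, only the pluripotency genes had a share above that of all genes.

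The 20 highest absent regions held genes of many kinds, with Rpl7 as the 1 ribosomal protein gene. Zcchc7, an RNA surveillance factor, had an FE of 8.24 and 7.73. Ercc1, a nuclease subunit of excision repair, had 8.39 and 7.52 at a region 957 bases from its nearest end and 194 bases past a listed start, and Tcf3, a basic helix-loop-helix E protein, had 7.32 and 7.41. Uvrag had 7.30 and 6.78. The 3 highest on no P53 peak were outside gene ends and on no H3K4me3 peak of any genotype: those nearest Mc2r (14.3 and 13.4), Myl12b (11.9 and 10.5) and Dus1l (10.4 and 9.44), on 51, 46 and 43 fragments in list 1.

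Some absent regions lay near the ends of neighbouring genes, at about the share of H3K4me3 peaks: 55 of 312 (17.6%, 13.8% to 22.2%) had the ends of 2 or more genes within 1 kb, against 15.7% of the WT H3K4me3 peaks. Such a region need not lie between the genes. Of the shared regions in WDR5 lists only, 20 of 72 (27.8%, 18.8% to 39.0%) did. The highest was near the starts of Map3k10 and Zfp607b (chr7:27674653-27674968, 9.08 and 8.23), with its summit 110 bases past the start of Zfp607b. The stretch shown above for Zfp607b overlaps the upstream edge of this region. Others were near ends of Tomm40 and Nectin2, Pradc1 and Cct7, Atxn7l2 and Sypl2, Iqch and Aagab, Cdca2 and Kctd9, and Tut1 and Eef1g, with list 1 FE from 8.68 to 6.84. The pairs Chd1l and Fmo5 (6.87 and 6.54), Nlgn2 and Tmem256 (6.31 and 6.17) and Ubxn6 and Hdgfl2 (6.43 and 6.13) followed.

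Chromosome 7 held 49 of the 312 absent regions (15.7%, 12.1% to 20.2%), against 8 of the 72 shared regions in WDR5 lists only (11.1%, 5.74% to 20.4%), whose interval overlaps, 0 of the 54 called with P53, 7.36% of WT H3K4me3 peaks and 9.27% of protein-coding genes. Chromosome 11 followed with 33. Chromosome Y held 0 absent regions.

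The promoter windows of 250 bases before to 50 after a listed start were searched for 11 motifs on both strands. There were 209 windows (184 genes) on an absent region and 63 (57 genes) on a shared one. The CCAAT box was in 48.8% of the absent and 66.7% of the shared windows, against 36.5% of 4454 windows on a WT H3K4me3 peak and 37.4% of all 32851. The GC box GGGCGG was in 75.1%, 71.4%, 66.4% and 35.7% in the same order, and the E-box CACGTG in 13.4%, 11.1%, 8.73% and 7.15%. The ZNF143 and THAP11 site was in 12 absent windows (5.74%) and 3 shared ones (4.76%), against 3.32% of marked windows and 1.01% of all. Genes with it included Nop16, Zfp607b and Map3k10 at absent regions and Arv1 at a shared one. The ETS core CCGGAA was in 30.1% of absent and 28.6% of shared windows, below the 36.7% of marked windows, and the YY1 core was in 1 window of each. The TATA box TATAAA was in 3.35% of absent windows, 0 of 63 shared ones, 4.96% of marked windows and 13.6% of all. The remaining motifs, the NRF1 site, the CRE site TGACGTCA, the CGCG palindrome and the octamer ATGCAAAT, were each in at most 4 absent windows. Windows overlap where a gene has several starts, a GC box can lie inside other GC-rich matches, and a match is only a run of letters.

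Near the boundary of the split, the absent regions closest to a DKO peak were those nearest Gm51877 (80 bases away, FE 1.95 and 1.95), Mid1 (242 bases, 9.89 and 9.82), Ddx54 and Rita1 (246 bases, 5.64 and 5.03) and Gm40469 (273 bases, 5.12 and 4.50). The Mid1 region was also on a peak of all 4 P53 lists. The shared regions with the smallest overlap were those nearest Gm40035 (111 bases), Rab40c (172), Stx5a and Wdr74 (179) and Zranb3 (193). Only 8 of the 312 absent regions (2.56%) had a DKO peak within 10000 bases.

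Regions were also found in DKO alone. Of 160 regions called in both DKO lists, 45 (28.1%) overlapped no WT WDR5 peak. This share and the 71.2% of WT move with the list lengths (725 and 450 peaks in WT, 226 and 166 in DKO), and with lists of equal length they were 51.9% and 55.6%, with overlapping intervals. Of the 45, 19 (42.2%, 29.0% to 56.7%) lay at a gene end. Their FE had a median of 5.03 in DKO list 1 and a highest value of 7.90, at a region outside genes nearest Gm40035. Among the 10 highest were regions at Ap1m1 (5.71 and 6.11), a clathrin adaptor subunit gene, Abhd11 (5.92 and 5.68), and Hdlbp with Septin2 (5.71 and 5.41). Others were nearest LOC100504180, Gm15319, Myo10, Slf2 and Gm40469. FE is not scaled between lists, so the heights of DKO peaks and of absent regions in WT are given side by side only. The 144 peaks of DKO list 1 on no P53 peak had a median FE of 4.77, and in 188 of the 312 absent regions the lower of the 2 WT values was above it. Why a region was not called in DKO was not tested.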

How the data were processed

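The 11 peak tables came from CUT&RUN libraries of mouse day 2 embryoid bodies, and the 4 WDR5 tables, with the P53 and H3K4me3 tables beside them, were used. Per the file headers, the authors called peaks with MACS 2.1.2 or 2.1.0.20150731 at a q cutoff of 0.01 without a control library, and list 2 of WDR5 and of P53 came from a merged alignment. The submitters' processing notes also name Bowtie2, SAMtools 1.5, bedtools, HOMER 4.10 and mm10. Pileup is a deposited coverage signal, the fold enrichment is a deposited ratio to the local background of 1 library, and the −log10 q values are those of the authors, used only as a stricter filter. As there was neither a control library nor a spike-in, calls depend on depth and on the background of each library.

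Regions were merged from both WT lists with Python 3.11.15 and pandas 2.3.3 by overlap of at least 1 base, and the code was tested on simulated data. Mitochondrial peaks were not used. Gene ends within 1 kb were taken from RefSeq gene spans of GRCm38.p6, which have no strand, and starts came from a RefSeq promoter table whose chromosome 18 starts were not used here. Exons and introns were not analysed here. Wilson intervals are at the 95% level (scipy 1.17.1). The members, 19 gene lists (757 entries) and motifs were chosen with earlier results of these data known.

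Genes named are list members at an absent or shared region, the genes nearest the 20 highest absent regions and the 15 highest shared ones (also for those on no P53 peak, added later), the 10 highest absent regions at 2 genes, 4 regions on each side of the overlap threshold and the 10 highest DKO regions without a WT peak. Of the highest ones the text gives a selection. The genes whose sequences are shown were picked from these after their motifs were seen.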

Additional observations from a re-analysis of the deposited data

How the results depend on the processing

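No paired analysis was possible because the lists numbered 1 and 2 of a genotype share reads, so the numbers do not pair libraries and no result comes from a test. Of 80 recomputed values, 61 stayed within the Wilson interval of the reported share (for the ribosomal protein genes, within 1.5 times the count) and 19 moved. The share of WT regions absent from DKO was 65.5% with −log10 q of at least 5, 55.6% with the WDR5 lists cut to equal length (the 166 peaks of the shortest), 79.9% with regions of either WT list and 80.6% without peaks on a P53 peak, an alternative chosen after seeing the data. The share of DKO regions absent from WT, reported as 28.1%, was 51.9% with equal length and 27.8% with the top 50% of each list, both chosen after seeing the data. For the WT share, leaving out 1 list at a time gave 71.3% to 80.0%, the highest without WT list 2. Absent regions at a gene end were 70.0% with lists of equal length, 50% within 200 bases and 75% within 5 kb, and 59.7% to 62.9% with 1 list left out. Shared regions at a gene end were 38.0% with the stricter q, 35.5% with the top 50% of each list, 39.1% with equal length, 37.3% within 200 bases, 60.3% within 5 kb and 80.6% without peaks on a P53 peak, and 42.2% to 50.3% with 1 list left out. On a WT H3K4me3 peak were 38.3% to 40.7% of absent and 74.5% to 80.7% of shared regions with 1 list left out, and 84.4% of shared regions with equal length and 68.1% without peaks on a P53 peak. Ribosomal protein genes at an absent region numbered 12 with the top 50% of each list, 8 with equal length and 19 to 24 with 1 list left out. The cause of these shifts was not tested, beyond that shorter lists hold fewer regions. The median pileup in WT list 1 was 21 fragments at absent regions, and the effect of depth on the calls was not tested.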

Other observations

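Zinc finger genes with a Zfp symbol were 5 of the 245 protein-coding genes at an absent region (2.04%) and 1.83% of all protein-coding genes. This was examined after the regions had been described.

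Each genotype had 1 WDR5 library, so the absence of 312 regions from DKO has no replicate check. Fold enrichment is not scaled between libraries. A region without a DKO call can still hold signal under the calling threshold, which the peak lists do not show. Loss of Wdr5 and loss of p53 cannot be told apart in DKO, and no WDR5 profile of KO was analysed here.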
